A study of Mus musculus with 6 samples.

Results

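A set of 8 effector genes of cytotoxic lymphocytes was followed in mouse brain cells, in 6 single-cell libraries: Ccl5, Nkg7, Gzma, Gzmb, Gzmk, Prf1, Ifng and Klrd1. They were chosen by name from the 33696 genes of the feature table, where each of the 8 symbols stood once. The libraries were made with the 10x droplet chemistry that counts the 3′ ends of transcripts, and each unique molecular identifier (UMI) stands for 1 captured molecule. The design held 3 groups of 2 libraries: the vehicle control of the wild type (WT vehicle), the wild type after bilirubin, the pigment left when haem is broken down (WT bilirubin), and libraries labelled TRPM2 Mg KO bilirubin, which are called KO-labelled below. The labels name the brain as the source and do not expand "Mg". The sources used here give no age, sex, brain region, dose or duration, and no KO-labelled group with vehicle was analysed here. Each group therefore differs from WT vehicle by bilirubin, and the KO-labelled group also by genotype. Nothing in the labels says that the 2 libraries of a group came from separate animals, so every p-value measures only how far these libraries vary, part of which may be technical.

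Cytotoxic T cells and natural killer (NK) cells kill target cells by releasing granules. Perforin, encoded by Prf1, opens the target membrane, and the granzymes, serine proteases encoded by Gzma, Gzmb and Gzmk, enter and cleave proteins inside. Nkg7 encodes a granule membrane protein needed for efficient release. Ifng encodes interferon gamma, the cytokine that activates microglia and macrophages and raises antigen presentation. Ccl5 encodes a chemokine that attracts T cells and myeloid cells. Klrd1 encodes CD94, which pairs with NKG2 proteins into receptors for the class I molecule Qa-1. In the brain these genes are known from memory T cells and NK cells of the meninges, choroid plexus and parenchyma, which are rare in the healthy organ.

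The libraries held 4137 to 24309 cell barcodes and 24165563 to 63402551 UMIs, and 94144 of 95014 barcodes passed the cell filter. Cells with UMIs of at least 2 of 6 T-cell receptor and CD3 genes, and of no other class, were called T-like, and cells with at least 2 of 9 NK receptor genes were called NK-like; none of the 8 effector genes was used. There were 956 T-like cells, 46 NK-like cells and 55 cells that met both rules, called T with NK receptors-like. Of 13 further T-cell genes all were detected in T-like cells and 10 in NK-like cells, at 6.67 and 2.00 UMIs per cell. Of 11 further NK genes all were detected in NK-like cells and 10 in T-like cells, at 18.6 and 3.97 UMIs per cell. Fcer1g and Tyrobp held most of the UMIs of these NK genes. They had 420 and 308 of 854 UMIs in NK-like cells, and 1564 and 1383 of 3798 in T-like cells. In T-like cells Cd8a or Cd8b1 was detected in 32.9% to 60.5% of cells per library and Cd4 in 2.86% to 8.42%. Trpm2, the gene named in the KO label, had 11.8 and 6.42 CPM (UMIs among 1000000) in the WT vehicle libraries, 5.12 and 8.22 in WT bilirubin and 6.61 and 4.59 in the KO-labelled libraries. In microglia-like cells it stood at 19.2, 15.5, 19.1, 33.1, 16.8 and 19.7 CPM in the same order. The KO label was therefore not borne out by lower Trpm2 counts; the deleted part of the gene is not given, and a 3′ count outside it checks nothing. Library pairs shared 12 to 141 cell barcodes, and on none of these was the cell of both libraries T-like, NK-like or T with NK receptors-like. Up to 7 such cells of 1 library stood on a barcode shared with another.

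KO-labelled library 2 stood apart. In it 33.5% of kept cells met the rules of several unrelated classes, against 2.76% to 16.1% in the other 5 libraries. These cells had a median of 11667 UMIs there, against 2410 to 5288 elsewhere. Of the 188 cells in that library that met a T or NK rule, 169 met another class too and were set aside, and 18 T-like cells and no NK-like cell were left. The other libraries kept 140 and 244 T-like cells (WT vehicle), 143 and 368 (WT bilirubin) and 43 (KO-labelled 1). Cells of several classes held 9.84% and 37.2% of all UMIs of the 8 genes in WT vehicle, 52.9% and 27.1% in WT bilirubin, and 30.2% and 73.5% in the KO-labelled libraries, as the plot of where these UMIs lay shows. The T-like values below thus cover part of the effector RNA of each library, and the smallest part in KO-labelled library 2, where T-like and NK-like cells together held 12.01% of it.

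**Figure D1:**
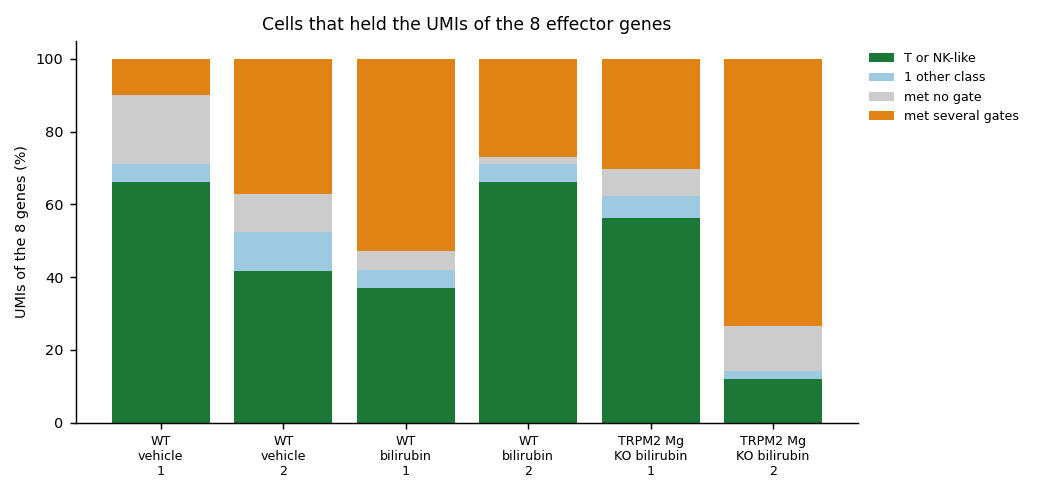
Percent of the UMIs of the 8 effector genes (vertical axis) in each of the 6 libraries (bars), split by where they lay: T or NK-like cells, 1 other class, cells that met no class and cells that met several classes. T or NK-like cells held 66.1% and 41.7% in WT vehicle, 37.0% and 66.2% in WT bilirubin, and 56.2% and 12.01% in the KO-labelled libraries.

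Over the 10 separate classes tested (NK-like cells were too few, and the wider class that adds them is left out), all 8 genes had their highest mean level in T-like cells. Over the 6 libraries Ccl5 averaged 5659 ± 779 CPM (SD, n = 6) in T-like cells, and the highest value in any of 9 other classes was 380 CPM, from 170 UMIs in the 190 astrocyte-like cells of WT bilirubin library 2. Nkg7 averaged 1000 ± 202 CPM against at most 26.0 CPM elsewhere. Klrd1 averaged 123 ± 47.3 CPM, Gzmk 114 ± 49.1 CPM and Ifng 105 ± 57.6 CPM, with at most 7.79, 14.1 and 5.96 CPM elsewhere. Gzma, Gzmb and Prf1 averaged 68.7 ± 96.2, 65.1 ± 21.6 and 23.8 ± 16.6 CPM in T-like cells, with at most 10.8, 1.13 and 0.901 CPM in another class. Gzma alone of the 8 genes had a spread over libraries larger than its mean.

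T-like and NK-like cells differed in opposite directions in Gzma and Gzmk. Gzmb was found in 76 of 956 T-like cells (7.95%) and in 18 of 46 NK-like cells (39.1%). Gzma UMIs were found in 28 of 46 NK-like cells (60.9%), in 16 of 55 T with NK receptors-like cells and in 25 of 956 T-like cells (2.62%). Gzmk UMIs were found in 201 T-like cells (21.0%), in 10 T with NK receptors-like cells and in 1 NK-like cell (2.17%). In NK-like cells Gzma had 87 and 330 UMIs in WT vehicle, 37 and 175 in WT bilirubin and 45 in KO-labelled library 1, while Gzmk had 0, 2, 0, 0 and 0. In CPM, Gzma stood at 2465, 7703, 4230, 7189 and 10328 in these 5 libraries, from 17, 15, 3, 10 and 1 cells. The values in NK-like cells of the groups thus overlapped, and with 1 to 17 cells per library no test was run. A single NK-like cell of WT vehicle library 2 held 184 of its Gzma UMIs. Ccl5, Nkg7, Gzma, Gzmb, Prf1 and Klrd1 were higher in NK-like than in T-like cells in 5 of 5 libraries, Ifng in 4 of 5 and Gzmk in 0 of 5. Median UMIs per cell were 2044.5 to 3576 in T-like and 1880 to 4357 in NK-like cells.

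**Figure D2:**
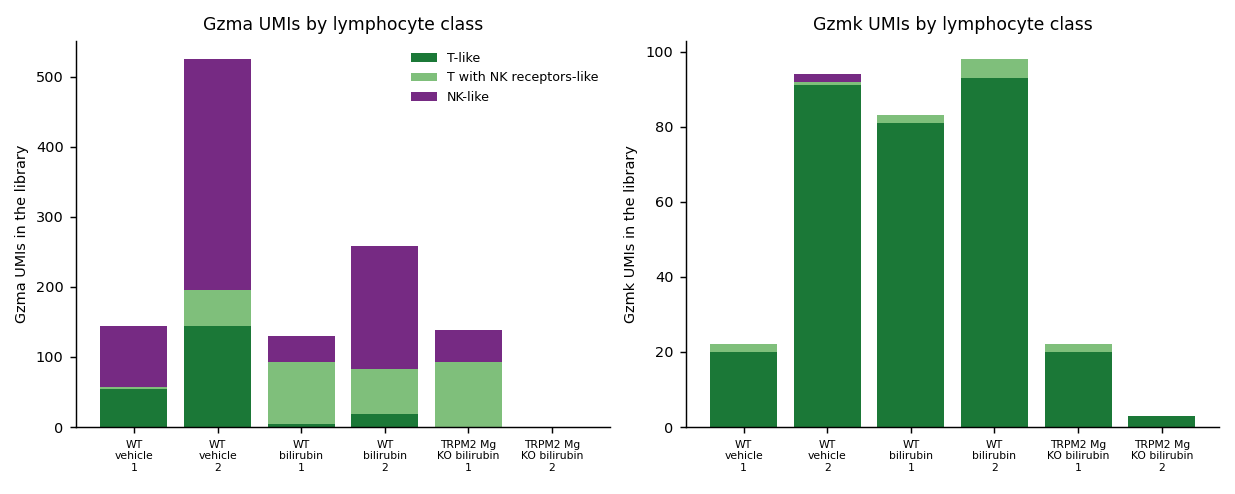
UMIs of Gzma and of Gzmk (vertical axes) in each library, stacked by T-like, T with NK receptors-like and NK-like cells. Gzmk UMIs lay in T-like cells and Gzma UMIs mostly in the other classes, and T-like cells held Gzma in both WT vehicle libraries (54 and 144 UMIs) and none in the KO-labelled libraries.

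The upstream sequences of 3 genes are shown because Gzma and Ifng were the genes whose T-like levels differed most between vehicle and bilirubin, while Gzmb, a granzyme like Gzma, overlapped between these groups. Each runs 5′ to 3′ on the gene's strand over the 150 bases before the start site, from RefSeq on GRCm38.p6. The places are chr13:113100982-113101131 (minus strand) for Gzma, chr10:118440896-118441045 (plus strand) for Ifng and chr14:56262335-56262484 (minus strand) for Gzmb. Capitals mark matches to the letters TGTGGT of RUNX proteins on either strand. They also mark matches to the letters TGANTCA of the AP-1 family, and to the letters TATAAA of the TATA box.
Gzma: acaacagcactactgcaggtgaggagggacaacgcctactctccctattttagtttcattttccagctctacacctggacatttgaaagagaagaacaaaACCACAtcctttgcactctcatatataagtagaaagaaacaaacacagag
Ifng: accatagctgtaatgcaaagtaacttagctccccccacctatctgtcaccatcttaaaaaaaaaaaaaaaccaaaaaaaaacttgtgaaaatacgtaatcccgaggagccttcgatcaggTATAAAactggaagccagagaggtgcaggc
Gzmb: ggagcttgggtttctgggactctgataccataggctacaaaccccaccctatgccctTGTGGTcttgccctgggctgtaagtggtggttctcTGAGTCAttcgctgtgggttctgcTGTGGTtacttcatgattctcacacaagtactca
RUNX and T-box proteins are the families of Runx3, Tbx21 and Eomes, which drive effector genes in T and NK cells. Gzma held a RUNX match on the reverse strand that starts 50 bases before the start site, and Gzmb held RUNX matches at 93 and 34 bases and an AP-1 match at 58 bases before it. Ifng held a TATA box match at 30 bases before its start and no RUNX or AP-1 match in the window. Of the 8 genes 6 had an entry in this promoter table, and all 250 bases before the start were searched on both strands. Nkg7 had a RUNX match and the only match to the T-box letters AGGTGTNA, Prf1 had a RUNX match, and Gzmk had no match. Among 27025 promoters of the same length 14.2% held the RUNX letters, 6.87% the AP-1 letters, 12.97% the TATA box letters and 2.69% the T-box letters. A match describes letters and not a bound site.

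In T-like cells, which leave out T cells with NK receptors, Gzma fell in the WT bilirubin libraries against WT vehicle. The call did not hold over all T cells, as given below. Gzma had 54 and 144 UMIs in WT vehicle, 4 and 19 in WT bilirubin, and 0 and 0 in the KO-labelled libraries. As CPM scaled by edgeR's TMM factors these were 199 and 239, then 9.90 and 23.2, then 0 and 0. Both WT vehicle libraries were above both WT bilirubin libraries, whose means were 219 ± 28.3 and 16.6 ± 9.41 CPM (SD, n = 2). The log2 fold change was -3.59 ± 0.45 (SE), with an adjusted p of 0.0122 in edgeR's quasi-likelihood test over 5778 genes. It was the only gene called in this comparison, 0.0173% of those tested; 576 genes had an unadjusted p below 0.05, and DESeq2 called 4 genes, Gzma among them. Gzma passed the filter on low counts in T-like cells only through WT vehicle, the group where it was high. The same values thus set its entry to the test. The call rests on few cells. In WT vehicle 6 and 10 T-like cells held Gzma, and the highest cell of each library had 25 of its 54 and 35 of its 144 UMIs; in WT bilirubin 2 and 7 cells held it. T with NK receptors-like cells held 3 and 51 Gzma UMIs in WT vehicle and 89 and 64 in WT bilirubin. In the KO-labelled libraries they held 93 and 0. In the same order, 1, 3, 3, 4, 5 and 0 of 6, 6, 10, 23, 9 and 1 such cells held the gene. These sums cover unequal numbers of cells and give no direction per cell. Over both kinds of T cell together Gzma stood at 170 and 284 CPM in WT vehicle, 203 and 83.9 in WT bilirubin, and 519 and 0 in the KO-labelled libraries, so the groups overlapped. The log2 fold change of WT bilirubin against WT vehicle was then -0.79, with an adjusted p of 0.759 in edgeR, and that of KO-labelled against WT vehicle was 0.26, with an adjusted p of 0.938.

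The share of T-like cells with a Gzma UMI was 4.29% and 4.10% in WT vehicle, 1.40% and 1.902% in WT bilirubin and 0% in both KO-labelled libraries. At a thinned depth of 500 UMIs per cell the group means were 2.91%, 0.554% and 0%. In choroid plexus-like cells, epithelial cells that should lack the gene, 0.129% to 0.581% of cells held a Gzma UMI at median depths of 2444 to 4564.5 UMIs. The count of 0 among 61 KO-labelled T-like cells allows a share of up to 4.92%, which includes the shares of the 4 WT libraries. With NK-like and T with NK receptors-like cells included, Gzma stood at 472 and 809 CPM in WT vehicle, 292 and 285 in WT bilirubin, and 729 and 0 in the KO-labelled libraries. Its log2 fold change from WT vehicle to WT bilirubin was then -1.16 ± 0.68, with an adjusted p of 0.607 in edgeR. In this wider class edgeR called 0 of 6304 genes (0%) in each of the 3 comparisons, with 638, 192 and 459 genes at an unadjusted p below 0.05, and DESeq2 called 4, 0 and 1 genes and no member. Cells of several classes, which were set aside, held 7.35% and 38.6% of all Gzma UMIs in WT vehicle, 74.1% and 39.8% in WT bilirubin, and 10.6% and 96.1% in the KO-labelled libraries. With these cells kept, the T-like log2 fold change was -3.18 and its adjusted p 0.9997 in edgeR, so the call ended.

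**Figure D3:**
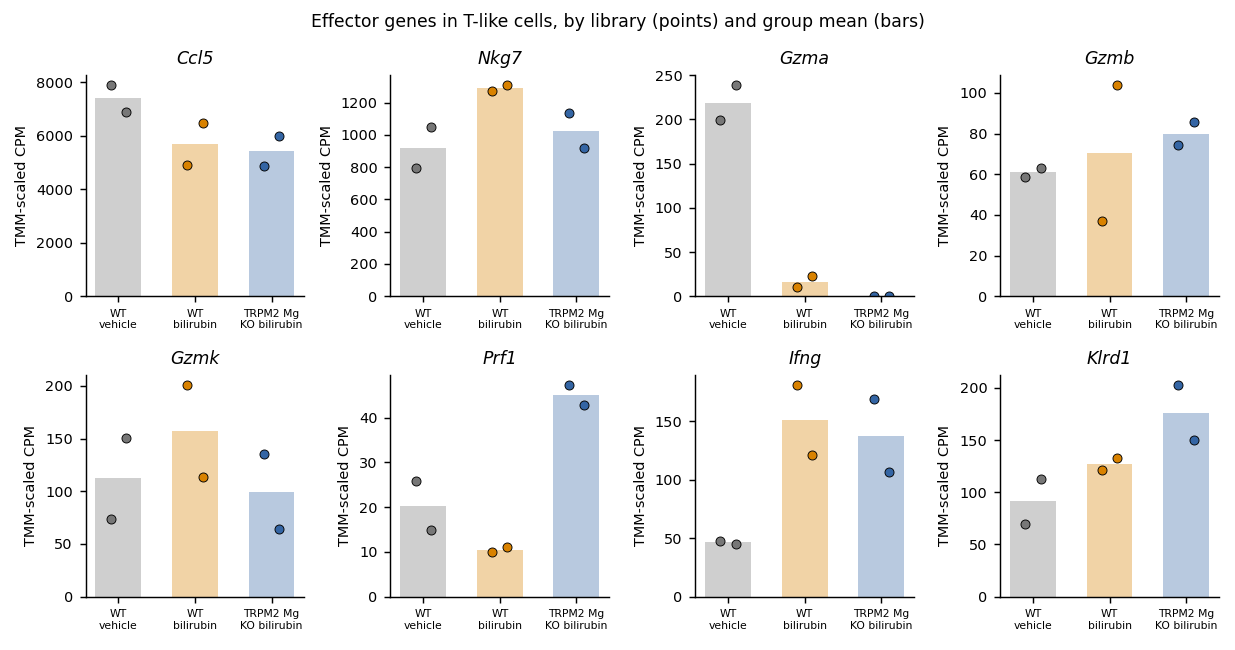
TMM-scaled CPM of each effector gene in T-like cells (vertical axes), 1 point per library, with bars at the group means of 2 libraries. Gzma was at 199 and 239 CPM in WT vehicle and at 23.2 CPM or below in the other 4 libraries, and Ifng was at 47.8 CPM or below in WT vehicle and at 107 CPM or above elsewhere.

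Ifng, the cytokine of the group, had the opposite order without passing the test. T-like cells held 13 and 27 Ifng UMIs in WT vehicle, 73 and 99 in WT bilirubin and 25 and 5 in the KO-labelled libraries. In TMM-scaled CPM these were 47.8 and 44.8, then 181 and 121, then 169 and 107. Every library that received bilirubin was above both WT vehicle libraries, and the WT bilirubin and KO-labelled ranges overlapped. Groups without overlap were common among all genes, with shares given below. The log2 fold change from WT vehicle to WT bilirubin was 1.69 ± 0.39, with an adjusted p of 0.246 in edgeR. From WT vehicle to KO-labelled it was 1.67 ± 0.46, with an adjusted p of 0.544. Between KO-labelled and WT bilirubin it was -0.02, with an interval of 2 SE on either side from -0.85 to 0.82 and an adjusted p of 1 in edgeR. That interval does not show that the groups are alike.

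The share of T-like cells with an Ifng UMI followed the same order. It was 7.86% and 9.02% in WT vehicle, 20.3% and 18.2% in WT bilirubin, and 32.6% and 16.7% in the KO-labelled libraries. Exact binomial 95% intervals, which cover counting error only, were 3.99% to 13.6% and 5.74% to 13.3%, then 14.0% to 27.8% and 14.4% to 22.5%, then 19.1% to 48.5% and 3.58% to 41.4%. Thinned to 500 UMIs per cell, the shares were 2.07% and 1.93%, 6.66% and 5.33%, and 8.33% and 4.29%, so both bilirubin groups were above vehicle at equal depth too. In microglia-like cells 0% to 0.169% of cells held an Ifng UMI. Leaving out WT bilirubin library 1 gave a log2 fold change of 1.36, and leaving out WT bilirubin library 2 gave 1.97. Each of these left WT bilirubin with 1 library, which is taken to vary like the other groups. Over 18 settings the log2 fold change ran from 1.24 to 1.97, and these were the only 2 in which it passed. The make-up of the class differed between the groups too: 35.7% and 24.6% of WT vehicle T-like cells had exactly 2 of the 6 T-cell genes, the least the rule allows, against 8.39% and 12.8% in WT bilirubin and 6.98% and 11.1% in the KO-labelled libraries. With at least 3 genes required, the log2 fold change of Ifng from WT vehicle to WT bilirubin was 1.49, with an adjusted p of 0.292 in edgeR.

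**Figure D4:**
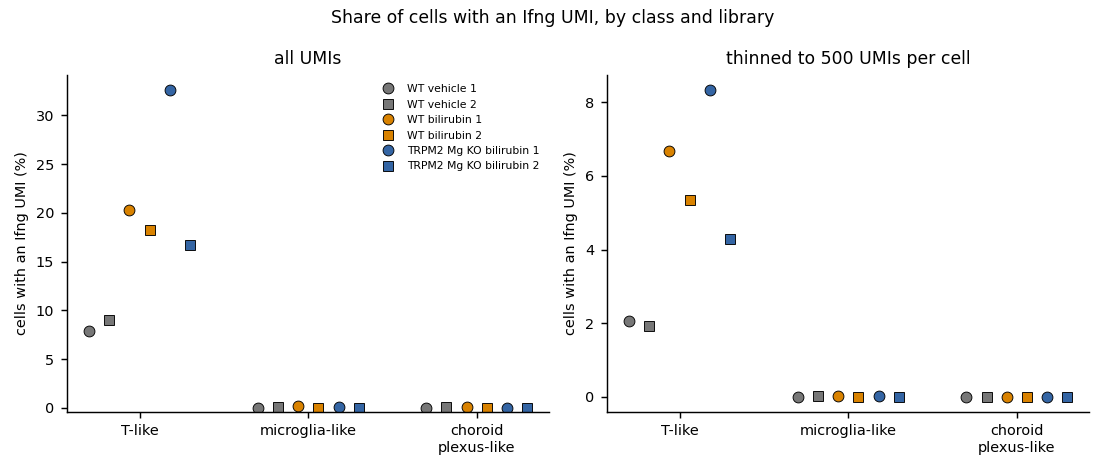
Percent of cells with an Ifng UMI (vertical axes) in each library by class, with all UMIs and after thinning each cell to 500 UMIs. In T-like cells the WT vehicle libraries were at 7.86% and 9.02% and the other 4 libraries at 16.7% to 32.6%.

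The other members did not pass the test in T-like cells. Ccl5, the chemokine, was at 7894 and 6903 CPM in WT vehicle, 4923 and 6474 in WT bilirubin and 4884 and 5987 in the KO-labelled libraries, so WT vehicle was above both other groups without overlap. Nkg7, the granule membrane protein, was at 795 and 1049, then 1272 and 1309, then 1133 and 919 CPM. WT bilirubin was above both other groups in every library. Klrd1, the CD94 receptor chain, was at 69.9 and 113, then 121 and 133, then 202 and 150 CPM, and the 3 groups did not overlap in that order. The share of all genes with 1 group beyond both others, or with 3 groups in order, was not counted. Between pairs of groups, 12.6% to 24.1% of all genes did not overlap in a given direction, as detailed below. Its log2 fold change from WT vehicle to KO-labelled was 0.97 ± 0.41, with an adjusted p of 0.687 in edgeR.

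Gzmb, the granzyme that cleaves caspases, was at 58.9 and 63.0 CPM in WT vehicle, 37.1 and 104 in WT bilirubin and 74.2 and 85.5 in the KO-labelled libraries. Gzmk was at 73.6 and 151, then 201 and 114, then 135 and 64.1 CPM, and its groups overlapped in every comparison. Prf1, the perforin gene, had the fewest UMIs, 7 and 9 in WT vehicle, 4 and 9 in WT bilirubin and 7 and 2 in the KO-labelled libraries. In CPM it was at 25.8 and 14.9, then 9.90 and 11.0, then 47.2 and 42.8. KO-labelled libraries were above WT bilirubin by a log2 fold change of 2.08 ± 0.83, with an adjusted p of 1 in edgeR. Prf1 passed the filter on low counts in T-like cells only through the KO-labelled libraries, with 7 and 2 UMIs. The same values thus set its entry to the test. With cells of several classes kept, the Prf1 difference was -0.46 and that of Klrd1 against WT vehicle was -0.23, so both directions turned.

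Between WT bilirubin and WT vehicle, 6 of the 8 genes did not overlap, 3 of them higher (Nkg7, Ifng and Klrd1) and 3 lower (Ccl5, Gzma and Prf1). Of all 5778 genes tested 21.3% did not overlap upward and 20.4% downward, so groups without overlap were common among all genes. The median log2 fold change of the 8 genes was 0.34, against 0.06 over all genes. Between KO-labelled and WT bilirubin, edgeR called 0 of the 8 and 0 of all genes (0%); 167 genes had an unadjusted p below 0.05, and DESeq2 called 0. Prf1 and Klrd1 were higher and Nkg7 and Gzma lower without overlap, against backgrounds of 12.6% and 17.8%. The 8 genes' median was -0.04 and that of all genes -0.05. Between KO-labelled and WT vehicle, edgeR called Gzma, the only gene called (0.0173%), with an adjusted p of 0.0453. Here too Gzma had entered the test only through WT vehicle. No Gzma UMI was found among 61 KO-labelled cells, against 198 UMIs in 16 of 384 WT vehicle cells, and the limit on the share of cells given above includes the WT vehicle shares, so no fold is given. This call was lost with T with NK receptors-like cells added, and without either KO-labelled library (adjusted p of 0.707 without library 1 and 0.158 without library 2, edgeR), and DESeq2 did not make it (adjusted p of 0.0520). Gzmb, Prf1, Ifng and Klrd1 were higher and Ccl5 and Gzma lower without overlap, against 17.3% and 24.1% of all genes. The comparisons share their libraries and are not independent of each other.

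**Figure D5:**
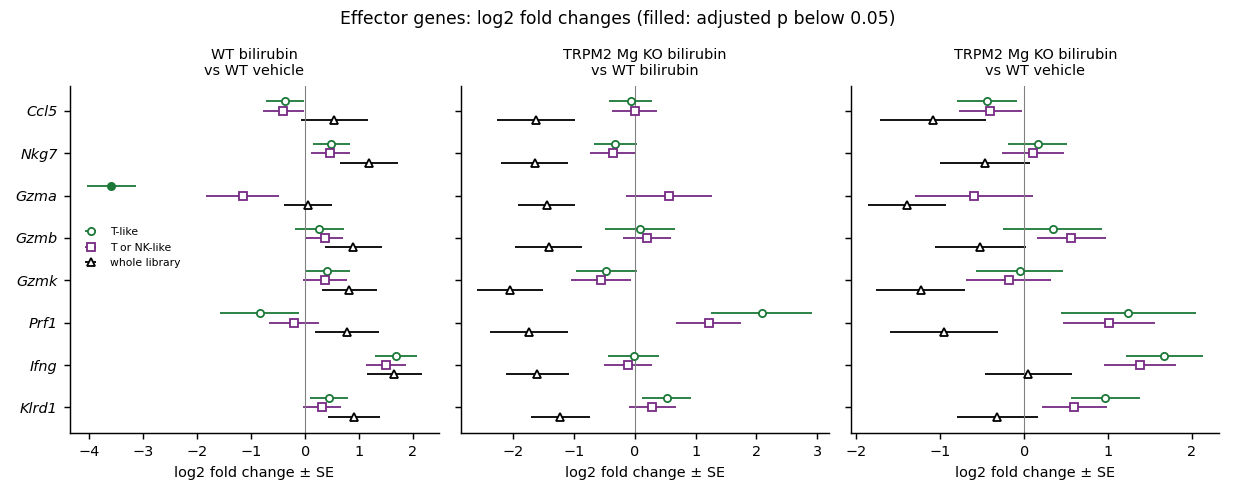
Log2 fold changes (horizontal axes) of the 8 genes in the 3 comparisons, in T-like cells (circles), T or NK-like cells (squares) and whole libraries (triangles), with bars of 1 SE; filled symbols have an adjusted p below 0.05 in edgeR. Gzma in T-like cells is left out where a group was at 0, and its filled symbol stands at -3.59 for WT bilirubin against WT vehicle.

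Simulated counts gave a rough scale of what could be called in T-like cells. Of genes given a 2-fold change between WT bilirubin and WT vehicle 1.09% were recovered, of those given 4-fold 66.8% and of those given 8-fold 95.1%. Each run tested 184 or 185 changed genes at once, of 5778 simulated. So many changed genes make the adjusted p easier to pass than where few genes differ. These shares thus do not carry over to a lone changed gene. The differences of Ccl5, Nkg7, Klrd1, Gzmb and Gzmk between these groups were all below 2-fold. RNA of other cells also differed between the groups within T-like cells. The 7 neuronal genes summed to 12245 and 4469 CPM in WT vehicle, 2062 and 1190.3 in WT bilirubin and 2049.7 and 4393 in the KO-labelled libraries. The 6 neutrophil genes summed to 37.3 and 25.3, then 237 and 234, then 93.5 and 41.8 CPM. Mitochondrially encoded genes, a sign of cell quality, summed to 6365 and 7626, then 47595 and 3779.7, then 29323 and 25394 CPM. The part of any of these in the differences above was not tested.

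Within T-like cells each effector gene was found in a larger pooled share of cells with Cd8 than of cells with Cd4, and 464 of the 956 cells showed neither. For Ifng the difference was small. Gzma and Prf1 were found in 0 of 60 cells with Cd4, a count that does not exclude a low share. Of 430 pooled cells with Cd8a or Cd8b1 UMIs 391 held Ccl5 (90.9%), of 60 cells with Cd4 19 did (31.7%), and of the 464 cells with neither 267 did (57.5%). Gzmk was found in 133 Cd8 cells (30.9%), 1 Cd4 cell and 66 cells with neither (14.2%), Klrd1 in 110, 3 and 50, Gzmb in 49, 1 and 26, Prf1 in 24, 0 and 11, and Gzma in 16, 0 and 9. Ifng was found in 83 of the Cd8 cells (19.3%), 10 of the Cd4 cells (16.7%) and 53 of the cells with neither (11.4%). By library Ifng was found in 2 of 46 and 14 of 115 Cd8 cells in WT vehicle, 15 of 71 and 39 of 163 in WT bilirubin, and 11 of 26 and 2 of 9 in the KO-labelled libraries.

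The genes were also found together in single cells. Over the 1057 T-like, NK-like and T with NK receptors-like cells, 69 held Gzma, and 68 of these held Ccl5, 65 Nkg7, 45 Klrd1, 30 Gzmb and 19 Prf1. Prf1 was thus found in 27.5% of cells with Gzma and 3.95% of cells without it, Klrd1 in 65.2% and 18.9%, and Gzmb in 43.5% and 9.11%. Gzmk did not follow Gzma to that degree, at 23.2% and 19.8%. Of the 166 cells with Ifng 143 held Nkg7 (86.1%, against 66.3% of cells without Ifng), 51 Klrd1 (30.7% and 20.3%) and 31 Gzmb (18.7% and 9.99%). Gzma was in 7.83% of Ifng cells and 6.29% of the rest. These are descriptions of pooled cells, in which deeper cells show more of every gene. They also mix classes: 28 of the 69 cells with Gzma were NK-like, and Gzmk was found in 1 of 46 NK-like cells. At least 3 of the 8 genes were found in 26.4% and 41.0% of T-like cells in WT vehicle, 46.2% and 41.3% in WT bilirubin, and 60.5% and 50.0% in the KO-labelled libraries.

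Summed over whole libraries, the 8 genes were highest where the library held most T-like cells, except Gzma. In bulk sums fewer cells of a type and less RNA per cell cannot be told apart. T-like cells made up 0.852% ± 0.215 of kept cells in WT vehicle, 2.48% ± 2.54 in WT bilirubin and 0.350% ± 0.121 in the KO-labelled libraries (SD, n = 2), and T-like, NK-like and T with NK receptors-like cells together 0.815%, 1.09%, 0.749%, 4.67%, 0.326% and 0.460% by library. The share of T-like cells differed by a log2 ratio of 1.54 ± 0.99 between WT bilirubin and WT vehicle (adjusted p of 0.421, edgeR) and of -2.85 ± 1.06 between KO-labelled and WT bilirubin (adjusted p of 0.187, edgeR). Over 13 settings the ratio between KO-labelled and WT bilirubin ran from -3.64 to -0.57. In KO-labelled library 2, 169 of the 188 cells that met a T or NK rule had been set aside. The T-like share there thus depends on that rule. WT bilirubin library 2 held the highest level of 7 of the 8 genes, and WT vehicle library 2 that of Gzma. Ccl5 was at 123 and 196 CPM in WT vehicle, 109 and 355 in WT bilirubin and 42.2 and 108 in the KO-labelled libraries. Gzmk was at 1.36 and 3.81, then 3.32 and 5.96, then 1.15 and 1.06 CPM. Ifng was at 0.823 and 1.71, then 2.68 and 5.47, then 1.60 and 1.01 CPM.

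All 8 genes were lower in both KO-labelled than in both WT bilirubin libraries, where 12.1% of the 19497 genes tested had no overlap downward. The log2 fold changes ran from -2.05 ± 0.54 (Gzmk) to -1.23 ± 0.49 (Klrd1), with a median of -1.62 against 0.02 over all genes. These sizes rest on single libraries. Without WT bilirubin library 2 they were -0.32 for Klrd1, -0.55 for Ccl5, -0.72 for Nkg7, -0.72 for Gzmb, -1.01 for Gzma and Ifng, -1.11 for Prf1 and -1.58 for Gzmk. Over all 6 ways of leaving out 1 library they stayed below 0 and reached -2.77 (Prf1, without KO-labelled library 1). Unadjusted p-values were 0.0038 to 0.032 and every adjusted p was 1 in edgeR; 1 gene in all was called (0.00513%), and DESeq2 called 12 genes and no member. Between WT bilirubin and WT vehicle edgeR called 1 gene in all (0.00513%) and none of the 8, with 2070 genes at an unadjusted p below 0.05, and DESeq2 called 82 genes and no member. Ifng differed by 1.65 ± 0.51 (adjusted p of 0.398, edgeR) and Nkg7 by 1.18 ± 0.54 (adjusted p of 0.479, edgeR), and without WT bilirubin library 2 these were 1.08 and 0.28. Between KO-labelled and WT vehicle edgeR called 0 of 19497 genes (0%), with 1231 at an unadjusted p below 0.05, and DESeq2 called 52 genes and no member.

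In microglia-like cells only Ccl5 and Klrd1 passed the filter on low counts. Ccl5 stood at 35.4 and 46.5 CPM in WT vehicle, 23.8 and 21.98 in WT bilirubin and 7.57 and 7.64 in the KO-labelled libraries, with the KO-labelled libraries lowest. The log2 fold change was -0.84 ± 0.29 for WT bilirubin against WT vehicle (adjusted p of 0.159), -1.59 ± 0.36 for KO-labelled against WT bilirubin (adjusted p of 1) and -2.43 ± 0.35 for KO-labelled against WT vehicle (adjusted p of 0.10), all in edgeR. Of 13634 genes edgeR called 1 (0.00733%), 1 (0.00733%) and 0 (0%) in these comparisons, with 884 at an unadjusted p below 0.05 in the last, where DESeq2 called 3 genes with Ccl5 among them. Neuron-like cells, which do not make Ccl5 as a rule, showed the same order, at 42.4 and 58.8, then 22.1 and 21.2, then 7.18 and 0 CPM, from 38, 65, 9, 5, 7 and 0 UMIs. There Ccl5 fell between KO-labelled and WT vehicle, with a log2 fold change of -2.87 ± 0.63 and an adjusted p of 0.0315 in edgeR, as 1 of 2 genes called (0.02% of 10017). It was not called in the other comparisons of neuron-like cells, where edgeR called 7 genes (0.0699%) between WT bilirubin and WT vehicle and 1 (0.00998%) between KO-labelled and WT bilirubin. The call was lost with DESeq2 (adjusted p of 1), without either WT vehicle library and without KO-labelled library 1 (edgeR). In T-like cells Ccl5 was at 5659 CPM, 244 times its mean in microglia-like and 250.1 times its mean in neuron-like cells, and the part of free lymphocyte RNA in the microglia-like and neuron-like values was not tested.

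Genes that work with the 8 members were read from further lists. In T-like cells edgeR called no gene of any of these lists in any comparison, where DESeq2 called 4, 0 and 1 genes in all. Of 14 other granule and killing genes 6 were tested, and 4 had a log2 fold change above 0 between WT bilirubin and WT vehicle, with a median of 0.21. Of 10 genes of granule activation and release 7 were tested and 5 were above 0 (median 0.35); Ctsc, the protease that activates granzymes, was at 0.89 with an adjusted p of 0.554. Of 10 effector transcription factors 7 were tested and 6 were above 0 (median 0.59). Bhlhe40, a factor needed for Ifng in T cells, was at 1.12 (adjusted p of 0.323, edgeR), with 95.6 and 89.5 CPM in WT vehicle, 200 and 200 in WT bilirubin and 182 and 107 in the KO-labelled libraries. Zeb2, a factor of terminal effector cells, was at -0.94 (adjusted p of 0.409, edgeR).

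Of 8 genes of tissue residence 7 were tested and 5 were above 0 (median 0.36). Cxcr6, the receptor of resident memory T cells, was at 40.5 and 68.0 CPM in WT vehicle, 156 and 169 in WT bilirubin and 236 and 171 in the KO-labelled libraries. WT vehicle lay below all other libraries, with a log2 fold change of 1.52 ± 0.37 to WT bilirubin and an adjusted p of 0.274 in edgeR. Of 8 naive and central memory genes 5 were tested (median 0.39), and of 7 exhaustion and checkpoint genes 5 (median 0.75), where Pdcd1 was at 1.54 with an adjusted p of 0.389. Of 10 activating and inhibitory NK receptors 5 were tested and 4 were above 0 (median 0.51); all 5 were above 0 between KO-labelled and WT vehicle (median 1.53). Klrc1, which encodes the inhibitory partner NKG2A of Klrd1, was at 29.4 and 9.94, then 42.1 and 40.3, then 175 and 0 CPM. Of 11 other lymphocyte cytokines and chemokines 5 were tested and 1 was above 0 (median -0.37). That gene was Il17a, at 0 and 4.97, then 111 and 105, then 6.75 and 877 CPM, with an adjusted p of 0.306.

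On the receiving side, Ifngr1, the ligand-binding chain of the interferon gamma receptor, was at 0.87 in T-like cells between WT bilirubin and WT vehicle, with an adjusted p of 0.434 in edgeR. All 7 genes of the Qa-1 and class I list were above 0 (median 0.31). H2-T23, which encodes Qa-1, was at 92.0 and 91.2 CPM in WT vehicle, 203 and 162 in WT bilirubin and 175 and 214 in the KO-labelled libraries, with an adjusted p of 0.349. Of 16 interferon gamma response genes 7 were tested in T-like cells and 6 were above 0 (median 0.48). In microglia-like cells 12 of the 16 were tested, 11 were above 0 between WT bilirubin and WT vehicle (median 0.54, against 0.05 over all genes) and 3 between KO-labelled and WT bilirubin (median -0.37), and edgeR called 0. In endothelial-like cells 12 were tested and 12 were above 0 between WT bilirubin and WT vehicle (median 0.67, against 0.01 over all genes), with 0 called in edgeR, where 58 of 10259 genes were called in all (0.565%).

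Lists for the state of the cells differed as well. Of 12 immediate early genes, which react to cell dissociation, 8 were above 0 between WT bilirubin and WT vehicle (median 0.19). They summed to 2368 and 2238 CPM in WT vehicle, 4335 and 2999.5 in WT bilirubin and 4419.8 and 2929 in the KO-labelled libraries, an order like that of Ifng. Junb, an AP-1 factor, was at 1.47 with an adjusted p of 0.279 in edgeR. All 12 tested of 13 further T-cell genes were above 0 (median 0.75), and of 11 further NK genes 6 were tested and 3 were above 0 (median -0.08). Fcer1g, which NK cells and microglia share, was at 1284 and 978, then 604 and 321, then 634 and 513 CPM. Of 7 genes of group 2 innate lymphoid cells 3 were tested (median 0.11). The part of cell state or of other cells' RNA in the Gzma and Ifng values was not tested.

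Across 60 profiles of 10 classes in 6 libraries, likeness to other genes was measured by Pearson's r of log2(CPM + 1), as a description of profiles that share libraries and depth. Gzmb was most like Cd40lg (r = 0.982), Prf1 like Il2rb (0.974), Ifng like Cd5 (0.957) and Gzmk like Cd28 (0.937). Klrd1 was most like Acap1 (0.930). Gzma had its highest r, 0.717, to Top2a, a gene of dividing cells.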

How the data were processed

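Single-cell RNA was counted in 6 mouse brain libraries, 2 per group, grouped by the labels. The deposited matrices hold raw UMI counts per gene and barcode, and they were written by Cell Ranger 9.0.1 per the file headers. The submitters' processing notes name Cell Ranger 8.0.0, Scanpy 1.9.6, GRCm39 and mm10 without roles, so the build behind the counts is unknown here.

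Cells were kept from 500 UMIs and 300 genes upward and up to a mitochondrial share of 15% of UMIs. Classes were gated on fixed markers (at least 2 different T or NK genes, 3 for other classes, 4 for neurons). Cells meeting several unrelated gates were set aside by the same rule in every library; no doublet caller was run. UMIs were summed per library and class and tested in classes with at least 10 cells in every library, with edgeR 4.0.16 in R 4.3.3 (quasi-likelihood test, group only, all 6 libraries, TMM, filterByExpr, Benjamini-Hochberg over all genes of a class and comparison, threshold 0.05); DESeq2 1.42.0 was an alternative. All 8 genes passed the count filter in T-like and T or NK-like cells. In T-like cells Gzma passed it only through WT vehicle and Prf1 only through the KO-labelled libraries. Per-class levels across classes are CPM without TMM. Each setting tried, and its effect, stands in the closing section. The steps were tested on simulated counts.

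The 8 genes and all lists were chosen with earlier results of these data known. All 8 genes are named, and of each other list up to 2 genes with the smallest p of a comparison where none passed. For likeness, genes needed at least 100 UMIs over all profiles, and marker genes were left out. Some genes of the lists and of the likeness ranking are not reported here. Intervals and limits from a count of 0 (3 counts) cover counting error only.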

Additional observations from a re-analysis of the deposited data

Results flagged for a closer look

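Nkg7 and Klrd1 differed in opposite directions in T-like cells and in other classes, by ratios of group mean CPM. In TMM-scaled CPM, Nkg7 overlapped between WT bilirubin and WT vehicle in choroid plexus-like cells. The other classes held few UMIs over all 6 libraries. Nkg7 had 112 in choroid plexus-like, 42 in microglia-like, 21 in endothelial-like and 19 in neuron-like cells. Klrd1 had 46 in microglia-like cells. The difference between the classes was not tested. Between WT bilirubin and WT vehicle, Nkg7 was higher in T-like cells (log2 ratio of mean CPM 0.55) and lower in choroid plexus-like (-1.08), endothelial-like (-2.53), microglia-like (-1.11) and neuron-like cells (-2.29). Klrd1 was higher in T-like cells (0.54) and lower in microglia-like cells (-2.02) in the same comparison. Between KO-labelled and WT vehicle libraries Klrd1 was again higher in T-like cells (1.11) and lower in microglia-like cells (-1.05). No value of Nkg7 or Klrd1 passed the test in edgeR in any of these classes, and several were not tested because of low counts.

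Cells that met several classes, which no comparison of T-like or NK-like cells used, held 52.9% of the UMIs of the 8 genes in WT bilirubin library 1 and 73.5% in KO-labelled library 2. Both are above the WT vehicle libraries (9.84% and 37.2%).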

How the results depend on the processing

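Of the counts of called genes and the cell shares under another setting, 277 stayed within the limits set for a change, 34 moved and 4 turned. Of the 8 genes, 1 was called in T-like cells between WT bilirubin and WT vehicle. This count was 0 in a fit of only the 4 libraries compared and 0 with cells of several classes kept, and 1 to 2 without each library in turn, with 2 when either WT bilirubin library was left out. With T with NK receptors-like cells added, a setting chosen after seeing the data, the count was 0 here and between KO-labelled and WT vehicle, where Gzma turned to 0.26. The call of Gzma between WT bilirubin and WT vehicle held in 15 of 18 settings (log2 fold change -4.42 to -3.27). These settings draw on the same libraries and are not independent of each other, and 6 of them left out 1 library. In the main setting Gzma entered the test only through WT vehicle, so this count is no separate support for the call. Where the call was lost, the log2 fold change reached -0.79. With only the 4 libraries the adjusted p of Gzma was 0.0606 in edgeR. Between KO-labelled and WT vehicle the count of 1 became 0 with library totals only, DESeq2, a gate of 3 markers, cells of several classes kept or an upper UMI limit, and ranged from 0 to 1 without each library. In T or NK-like cells, where 0 were called, the counts without each library were 0 to 2 between WT bilirubin and WT vehicle (2 without WT bilirubin library 1, 1 without library 2) and 0 to 1 between KO-labelled and WT vehicle (1 without KO-labelled library 1). In microglia-like cells Ccl5 was called (1 gene) between KO-labelled and WT vehicle with no low-count filter, with DESeq2 and with only the 4 libraries, and the counts without each library were 0 to 1 in this comparison and between KO-labelled and WT bilirubin. In neuron-like cells the count of 1 (Ccl5) between KO-labelled and WT vehicle became 0 with library totals only, no low-count filter or DESeq2, and was 0 to 1 without each library. With no low-count filter, whole libraries gave 1 called gene between WT bilirubin and WT vehicle (Ifng), 3 between KO-labelled and WT bilirubin (Nkg7, Gzma and Gzmk) and 1 between KO-labelled and WT vehicle (Gzma). The cause of these changes was not tested.

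The T-like difference of Ifng between KO-labelled and WT bilirubin, -0.02, turned to 8.6e-05 with median-of-ratios size factors, 0.077 with library totals, 0.23 without WT bilirubin library 1 and 0.14 without KO-labelled library 2, in a range of -0.61 to 0.23 without each library in turn. With cells of several classes kept, Prf1 turned to -0.46 between KO-labelled and WT bilirubin, Klrd1 to -0.23 between KO-labelled and WT vehicle, and the log2 ratio of the T-like share to 0.81 between KO-labelled and WT vehicle. Between WT bilirubin and WT vehicle the log2 ratio of the T-like share ranged from -0.31 (without WT bilirubin library 2) to 2.33 without each library, and that of the NK-like share from -2.29 to 0.66 (without WT bilirubin library 1), with 0.73 when cells were gated after thinning. Between KO-labelled and WT bilirubin the log2 ratio of the T-like share ran from -3.64 to -0.57 over 13 settings. No difference in cell shares passed in any setting.

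Replicate numbers did not pair the libraries: deviations of same-numbered libraries correlated at -0.18 to 0.08. With the number as a replicate block, Gzma in T-like cells stayed called between WT bilirubin and WT vehicle (log2 fold change -3.67, adjusted p of 0.0110, edgeR). The block gave 0 called members in T-like cells (adjusted p of 0.0519 for Gzma, edgeR) and 0 in neuron-like and 1 in microglia-like cells between KO-labelled and WT vehicle. Settings were not varied in classes that are not named here.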
